A study of Mus musculus with 8 samples.

Results

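The 9 genes examined act in the lipolysis, assembly, uptake and export of lipoprotein lipids and sterols: the lipases Lpl and Lipc, the angiopoietin-like proteins Angptl4 and Angptl8, the assembly factor Mttp, the receptor Vldlr, and the sterol exporters Abca1, Abcg5 and Abcg8. They were found by matching the gene identifiers of the count tables to their symbols in the GENCODE mouse annotation, which gave 9 of 9 genes among the 56884 in each table, and all 9 passed the filter on low counts that left 12412 genes for testing. Their RNA was measured in the liver of obese C57BL/6J female mice killed at 18 months of age after an overnight fast. The DIO group (3 mice, replicates 1, 4 and 5) had eaten a high-fat diet in which lipids gave 45% of the energy since the age of 2 months, and so had the DIO + DHA group (5 mice, replicates 1, 2, 4, 5 and 6) for the first 4 months. From then on, 15% by weight of the lipids in the diet of the DIO + DHA group came from a fish oil concentrate, as triglycerides, with 683.4 mg of docosahexaenoic acid (DHA) and 46.7 mg of eicosapentaenoic acid (EPA) per g, so the DHA was not given alone. The tocopherol antioxidants of the concentrate were added to the DIO diet as well. There was 1 library per mouse, all 8 carried the same batch label, and no lean or younger mice enter these comparisons.

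Circulating triglycerides travel in lipoproteins that the liver assembles with the help of Mttp and secretes as very-low-density lipoproteins. Lipases on the vessel wall release fatty acids from them, and proteins of the Angptl family restrain the lipases according to the nutritional state. The liver takes up the remnants through receptors, and it disposes of sterol either by passing it to apolipoprotein A-I through Abca1 or by secreting it into bile through the Abcg5 and Abcg8 pair. In the adult liver Lipc is the lipase made by hepatocytes, while Lpl is made mainly in adipose tissue, heart and skeletal muscle.

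Depth ran from 1723800 counts in DIO replicate 1 to 5690347 counts in DIO replicate 5, and the median library had 4495644. Levels are in CPM (a gene's count scaled to a common library total after TMM scaling), and differences are the log2 fold change of DIO + DHA over DIO with its standard error (SE) from edgeR's quasi-likelihood test, adjusted by the Benjamini-Hochberg method over the 12412 genes. The liver label was checked against 9 hepatocyte genes, whose summed level was 75327 to 81083 CPM in DIO and 74122 to 89214 CPM in DIO + DHA, and the groups overlapped (exact two-sided permutation test, adjusted p = 0.661). Of the 9, 0 were called higher and 3 lower (Serpina1c, Cyp2e1 and Hnf4a), and most of the sum was Alb and Ttr. The sum of 15 skeletal muscle genes was 33.9 to 37.9 CPM in the DIO livers and 1344 to 1441 CPM in the DIO + DHA livers, and 15 of the 15 were called higher. That of 10 adipocyte genes was 30.7 to 32.1 CPM and 92.3 to 124 CPM, with 6 of 8 tested genes called higher. The tested genes not called were Pparg and Adrb3, with folds of 0.913 and 1.08. Lep, Plin1 and Ucp1 were at 0 in every DIO library. However, Lep had 2 counts in DIO + DHA replicate 4 alone, Plin1 had at most 5 counts in a library, and neither was tested. Ucp1 had 8 to 25 counts in each DIO + DHA library and was called higher. A sum of 10 squamous epithelium genes was 0 to 0.361 CPM in DIO and 50.9 to 54.6 CPM in DIO + DHA, with 8 of them, Krt5 and Krt14 included, at 0 in every DIO library. Macrophage markers went the other way, from 608 to 689 CPM down to 397 to 431 CPM, with 9 of 13 genes called lower and 1 higher. The sums of endothelial (230 to 259 against 175 to 207 CPM) and stellate cell genes (260 to 285 against 214 to 242 CPM) were also lower. For each of these lists other than that of hepatocytes, the exact permutation test gave an adjusted p of 0.0208. It rests on the smallest raw p that 56 splits of 8 libraries allow, 0.0179. The lists were chosen with earlier results of these data known, so this p describes the separation and is not independent support. In the endothelial list 2 of 10 genes (Clec4g and Lyve1) and in the stellate cell list 2 of 9 were called, all lower. Beside the counts of all these lists, 7.89% of all genes tested were called higher and 7.28% lower.

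Of the 9 genes, 3 rose with DHA (Lpl, Angptl8 and Mttp), 0 fell and 6 did not pass the test. That is 33.3% of the genes, beside 15.2% of all genes tested that were called in either direction, 7.89% being higher and 7.28% lower. Libraries of the groups did not overlap for the same 3 genes, all higher, beside 18.4% of all genes tested, 9.54% being higher and 8.88% lower. The same 3 genes also passed limma-voom at a log-odds B above 0, beside 6.93% of all genes tested. The median log2 fold change of the 9 genes was 0.14, with a range of -0.00 to 1.15, beside a median of 0.00 over all genes tested. In bulk tissue, fewer cells of a type and less RNA per cell cannot be told apart, and the same holds for more of either.

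**Figure D1:**
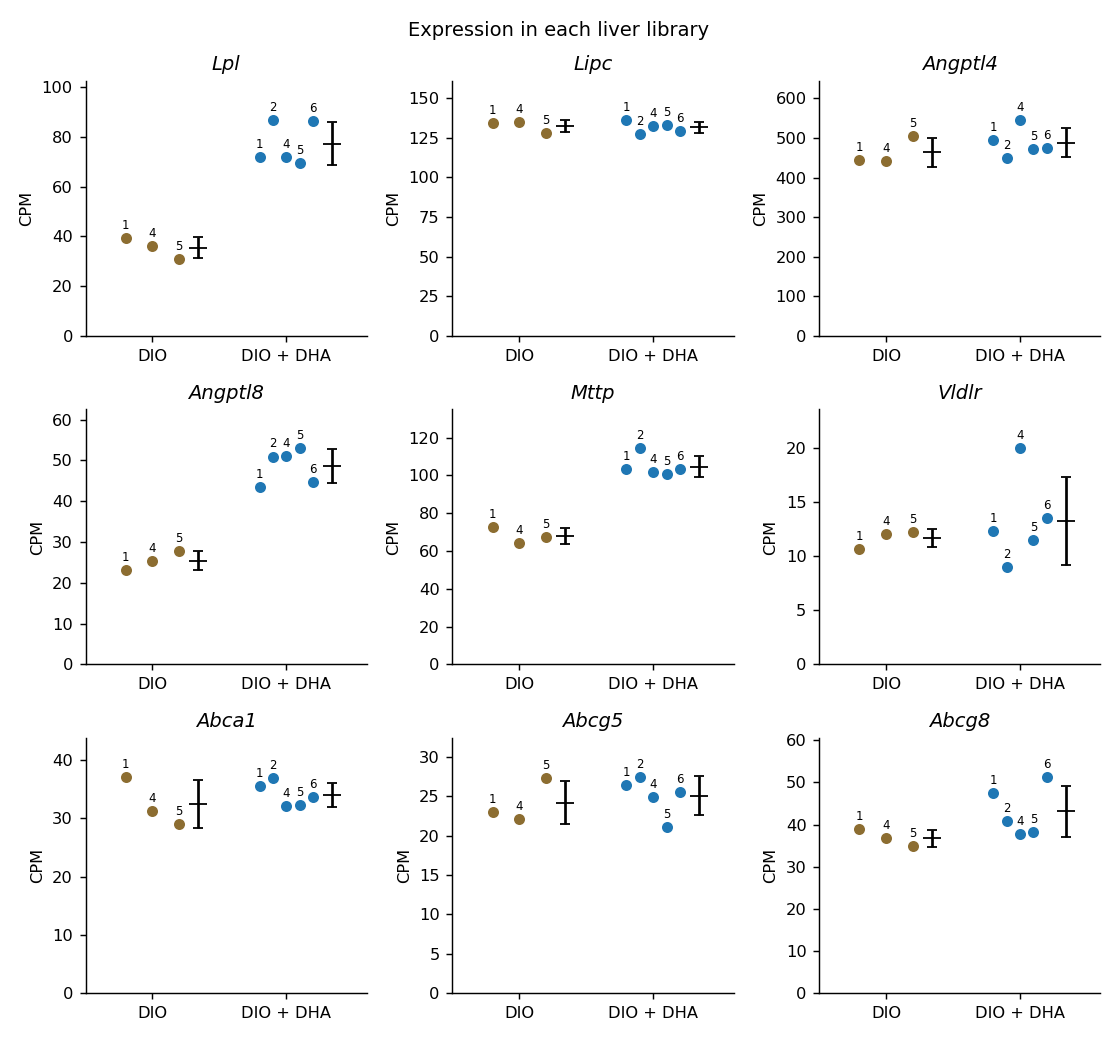
Expression of the 9 genes in CPM (y axis) in each library, with DIO on the left and DIO + DHA on the right of each panel; points are libraries, digits are replicate numbers, and the bars beside them give the mean ± SD. Lpl (30.9 to 39.4 against 69.3 to 86.8 CPM), Angptl8 (23.1 to 27.9 against 43.4 to 52.9 CPM) and Mttp (64.2 to 72.6 against 100.5 to 114 CPM) show no overlap between the groups, and the other 6 genes overlap.

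Lpl, the lipase that hydrolyses the triglycerides of chylomicrons and very-low-density lipoproteins at the capillary wall, had the largest change of the 9. Its level was 39.4, 36.2 and 30.9 CPM in DIO replicates 1, 4 and 5, and 72.0, 86.8, 71.7, 69.3 and 86.3 CPM in DIO + DHA replicates 1, 2, 4, 5 and 6. Every DIO + DHA library was above every DIO library, and the lowest of them stood well clear of the highest DIO value. The mean went from 35.5 ± 4.30 (SD, n = 3) to 77.2 ± 8.56 CPM (SD, n = 5), a 2.22-fold rise with a log2 fold change of 1.15 (SE 0.11, adjusted p = 4.6e-13 by edgeR). The gene (ENSMUSG00000015568.17) lies on the plus strand of chromosome 8 at 69333143 to 69360100 of GRCm39, and a total of 1959 counts over the 8 libraries stand behind these values.

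The Lpl difference moved with the other-tissue signal given above. Skeletal muscle and adipocyte genes, which mark tissues known for high Lpl, were higher in the same 5 libraries, whereas macrophage genes, which mark another cell type that makes Lpl, were lower. Among the DIO + DHA libraries, replicate 1 had the highest muscle sum (1441 CPM) with 72.0 CPM of Lpl, and replicate 6 had the lowest muscle sum (1344 CPM) with 86.3 CPM of Lpl. Replicate 4 had the highest adipocyte sum (124 CPM) with 71.7 CPM of Lpl, and replicate 5 the lowest (92.3 CPM) with 69.3 CPM. The part of these tissues in the Lpl difference was not tested.

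**Figure D2:**
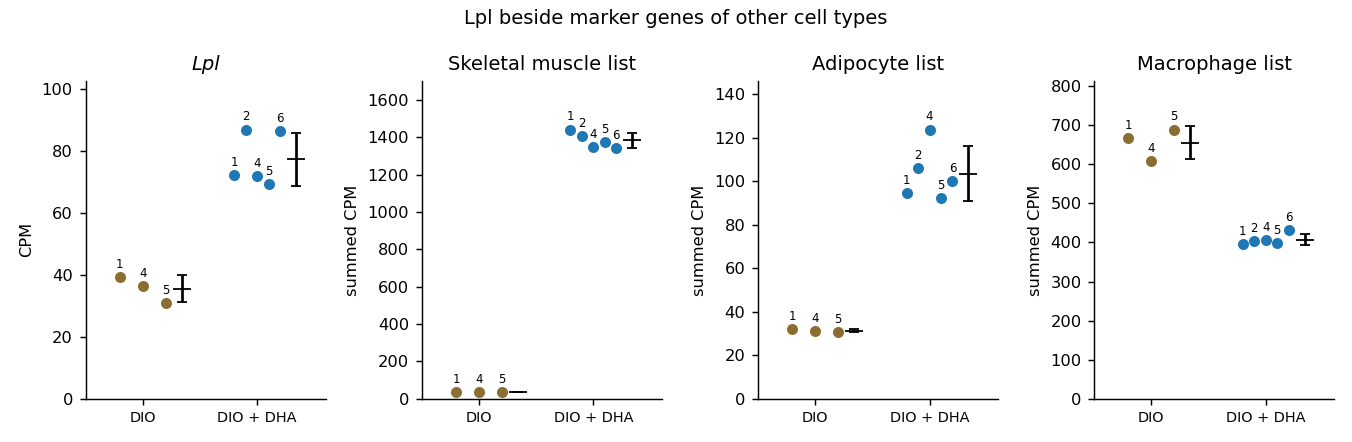
Level of Lpl (CPM) and summed levels of the skeletal muscle, adipocyte and macrophage genes (summed CPM) on the y axes of 4 panels, by group on the x axes; points are libraries, digits are replicate numbers and bars give the mean ± SD. The groups separate in every panel, with muscle sums of 33.9 to 37.9 against 1344 to 1441 CPM, adipocyte sums of 30.7 to 32.1 against 92.3 to 124 CPM and macrophage sums of 608 to 689 against 397 to 431 CPM.

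Lipc, the hepatic lipase that acts on remnants and high-density lipoproteins (ENSMUSG00000032207.11, chromosome 9, 70705410 to 70859508, minus strand), was measured at nearly one level in all mice. The DIO libraries had 134, 135 and 128 CPM and the DIO + DHA libraries 136, 127, 132, 133 and 129 CPM. The highest and the lowest of the 8 values were both in DIO + DHA. The log2 fold change was -0.00 (SE 0.08, 95% interval -0.16 to 0.15, adjusted p = 0.98), an interval of 0.896 to 1.11 as a fold. The within-library ratio of Lpl to Lipc counts was 0.268 ± 0.0258 (SD, n = 3) in DIO and 0.588 ± 0.0794 (SD, n = 5) in DIO + DHA, 2.18-fold higher and without overlap (exact two-sided permutation test, p = 0.0179, adjusted over the 3 ratios tested p = 0.0268). This ratio compares groups, and since counts were not divided by length it does not give the relative abundance of the RNAs. Its raw p is the smallest possible, and since Lpl alone already separated the groups, it is not independent support.

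The inhibitors Angptl4 and Angptl8 differed in their response. Angptl4, an inhibitor of Lpl that is induced by fasting and by fatty acids (ENSMUSG00000002289.17, chromosome 17, 33992724 to 34000804, minus strand), had 444, 442 and 506 CPM in DIO and 496, 448, 546, 473 and 475 CPM in DIO + DHA. The groups overlapped over most of their range. With 15651 counts over the 8 libraries it was the most deeply counted of the 9 genes, and its log2 fold change was 0.07 (SE 0.07, 95% interval -0.07 to 0.21, adjusted p = 0.60).

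Angptl8, a feeding-induced protein made in liver and fat that takes part in the inhibition of Lpl, rose. Its levels were 23.1, 25.4 and 27.9 CPM in the DIO libraries and 43.4, 50.9, 51.0, 52.9 and 44.8 CPM in the DIO + DHA libraries. All 5 DIO + DHA livers were above the highest DIO liver. The mean went from 25.4 ± 2.40 (SD, n = 3) to 48.6 ± 4.22 CPM (SD, n = 5), a 1.86-fold rise with a log2 fold change of 0.90 (SE 0.12, adjusted p = 1.2e-08). Adipocytes also make Angptl8, the adipocyte sum was higher in the same libraries, and its part in the difference was not tested. The difference between the inhibitors was tested within libraries. The ratio of Angptl8 to Angptl4 counts was 0.0549 ± 0.00285 (SD, n = 3) in DIO and 0.1002 ± 0.0118 (SD, n = 5) in DIO + DHA, 1.81-fold higher without overlap (exact two-sided permutation test, p = 0.0179, adjusted p = 0.0268). This raw p is the smallest possible, and since Angptl8 alone already separated the groups, it is not independent support.

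Angptl8 (ENSMUSG00000047822.9) lies on chromosome 9 at 21746806 to 21748643 of GRCm39 on the plus strand. It sits within the span of Dock6 (21711156 to 21763931), which runs on the opposite strand, and shares 0 exon bases with it. Counting ignored strand, so reads from unspliced Dock6 RNA over Angptl8 exons could not be told from those of Angptl8. Because Angptl8 and Mttp rose, the 250 bases before their RefSeq start sites are shown, read 5′ to 3′ on the strand of each gene at chr9:21746556-21746805 (plus strand) and chr3:137849180-137849429 (minus strand) of GRCm39. The letters come from the RefSeq promoter table of GRCm38.p6, and each stretch was found exactly once in GRCm39. Trmt10a runs on the plus strand from 137849209 of chromosome 3, so most of the Mttp stretch also lies within that gene. No letters are in capitals, because none of the motifs searched lies within these 2 stretches.
Angptl8: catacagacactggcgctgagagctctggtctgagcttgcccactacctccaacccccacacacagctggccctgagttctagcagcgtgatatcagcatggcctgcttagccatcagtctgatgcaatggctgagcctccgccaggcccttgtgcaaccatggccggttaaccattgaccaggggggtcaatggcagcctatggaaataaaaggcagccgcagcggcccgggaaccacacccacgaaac
Mttp: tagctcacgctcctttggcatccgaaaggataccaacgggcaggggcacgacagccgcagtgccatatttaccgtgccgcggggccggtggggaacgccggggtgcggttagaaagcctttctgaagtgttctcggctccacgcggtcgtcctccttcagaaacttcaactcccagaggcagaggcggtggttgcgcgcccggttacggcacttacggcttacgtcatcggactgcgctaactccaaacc

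The 7 motifs were searched on both strands in windows of 250 bases before to 50 bases after the start site, of which 7 of the 9 genes had at least 1. They were AGGTCA (the core bound by nuclear receptors, in 16.3% of all 32851 windows), TATAAA (13.6%), CCAAT (37.4%), GGGCGG (35.7%), CACGTG (7.15%), and 2 direct repeats of AGGTCA with 1 base (0.0396%) or 4 bases (0.0152%) of any kind between the copies, so that a window with either also holds AGGTCA. The Angptl8 window held none of them. The Mttp window held only GGGCGG, at position 25 after the start site and thus outside the stretch shown. These are matches of letters and say nothing of binding.

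Mttp encodes the large subunit of the microsomal triglyceride transfer protein, which loads lipid onto apolipoprotein B in the endoplasmic reticulum. Its level was 72.6, 64.2 and 67.6 CPM in DIO and 104, 114, 102, 100.5 and 103 CPM in DIO + DHA. The DIO + DHA libraries were all above the DIO libraries, and 4 of them lay within a few CPM of each other, with replicate 2 above the rest. The mean went from 68.1 ± 4.21 (SD, n = 3) to 105 ± 5.53 CPM (SD, n = 5), a 1.55-fold rise with a log2 fold change of 0.63 (SE 0.09, adjusted p = 7.8e-08).

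Mttp (ENSMUSG00000028158.15) spans 137795615 to 137850729 on the minus strand of chromosome 3, and its RefSeq start site at 137849179 lies 1550 bases inside that span. Of its exon bases, 9.49% are shared with genes on the other strand, 7.36% with Trmt10a and 2.13% with Gm43691. Reads in the shared bases were left out of the counts of both genes, and reads of the antisense genes elsewhere could not be told apart by strand.

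The receptor Vldlr, which binds apolipoprotein E-containing lipoproteins and is scarce in the healthy liver, was the least deeply counted of the 9 genes, with 411 counts over the 8 libraries and as few as 19 in DIO replicate 1. It had 10.7, 12.1 and 12.2 CPM in DIO and 12.3, 9.05, 20.0, 11.5 and 13.5 CPM in DIO + DHA. The lowest and the highest libraries were both in DIO + DHA. The coefficient of variation among the DIO + DHA libraries was 30.9%, against 14.7% from counting error alone. The log2 fold change of 0.14 (SE 0.19, 95% interval -0.24 to 0.51, adjusted p = 0.73) went to -0.03 without DIO + DHA replicate 4. The gene (ENSMUSG00000024924.15) lies on chromosome 19 at 27193884 to 27231631 on the plus strand.

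None of the 3 sterol exporters passed the test. Abca1, which hands cholesterol and phospholipid to apolipoprotein A-I to form high-density lipoprotein (ENSMUSG00000015243.5, chromosome 4, 53030787 to 53159895, minus strand), had 37.1, 31.2 and 29.1 CPM in DIO and 35.5, 36.9, 32.1, 32.3 and 33.6 CPM in DIO + DHA. All 5 DIO + DHA values lay within the DIO range. The log2 fold change was 0.11 (SE 0.12, 95% interval -0.12 to 0.35, adjusted p = 0.62).

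Abcg5 and Abcg8 encode the obligate heterodimer that secretes sterols into bile, and both are known targets of the oxysterol-sensing liver X receptors. Abcg5 was at 23.1, 22.2 and 27.3 CPM in DIO and at 26.4, 27.5, 24.97, 21.1 and 25.6 CPM in DIO + DHA, with overlapping groups and a log2 fold change of 0.03 (SE 0.13, 95% interval -0.23 to 0.30, adjusted p = 0.91). Abcg8 was at 38.8, 36.8 and 34.8 CPM in DIO and at 47.4, 40.9, 37.8, 38.2 and 51.3 CPM in DIO + DHA. For Abcg8, replicates 1, 2 and 6 of DIO + DHA were above all DIO libraries, while replicates 4 and 5 lay between DIO values. Its log2 fold change of 0.26 (SE 0.11, 95% interval 0.03 to 0.49) did not pass the test (adjusted p = 0.13 by edgeR), although the interval, which is not adjusted, lies above 0. The ratio of Abcg5 to Abcg8 counts was 0.661 ± 0.108 (SD, n = 3) in DIO and 0.588 ± 0.0754 (SD, n = 5) in DIO + DHA, and an unequal change of the pair was not detected (exact two-sided permutation test, p = 0.304).

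The 2 genes lie on opposite strands of chromosome 17, Abcg5 (ENSMUSG00000040505.14) at 84965662 to 84990439 on the minus strand and Abcg8 (ENSMUSG00000024254.16) at 84983730 to 85007761 on the plus strand. Their annotated spans overlap over 6710 bases, but only 82 exon bases are shared, 3.02% of those of Abcg5 and 2.19% of those of Abcg8. RefSeq gives Abcg8 2 start sites, 1 at the start of the annotated span (84983730) and an inner one at 84990549, which is 110 bases from the Abcg5 start site at 84990439. All the bases between them, chr17:84990440-84990548 of GRCm39, are shown on the Abcg8 strand because this short stretch separates the Abcg5 start site from the inner start site of Abcg8, and the capitals mark TATAAA as it reads on the strand of Abcg5.
Abcg5-Abcg8: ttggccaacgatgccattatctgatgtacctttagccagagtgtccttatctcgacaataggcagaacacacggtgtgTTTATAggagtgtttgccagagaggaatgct

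Counted to its first base on each strand, that match stood at -31 from the inner Abcg8 start site and at -84 from that of Abcg5. The window of that Abcg8 site also held CCAAT at -175 and -114, the window of the outer Abcg8 site held none of the motifs, and the Abcg5 window held it on the other strand at 1. The Abca1 window held TATAAA at -29, GGGCGG at -163 and -97, and CACGTG at -147. AGGTCA was found in a window of Lipc only, at -88 and, on the other strand, at -76.

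**Figure D3:**
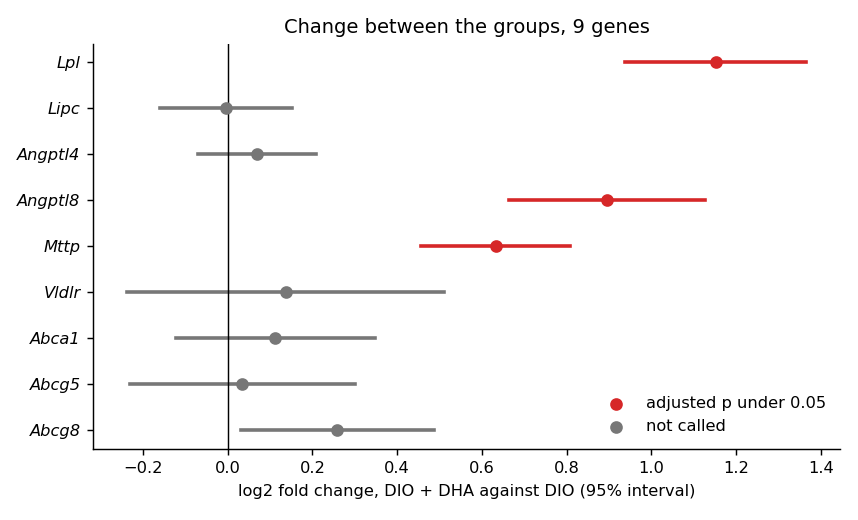
Log2 fold change of DIO + DHA over DIO (x axis) for each of the 9 genes, with points for the edgeR estimate, red where the adjusted p is under 0.05, and bars for the 95% interval. The intervals of Lpl (0.94 to 1.37), Angptl8 (0.66 to 1.13) and Mttp (0.46 to 0.81) lie above 0, that of Abcg8 (0.03 to 0.49) does so without passing the adjusted test, and the other 5 include 0.

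**Figure D4:**
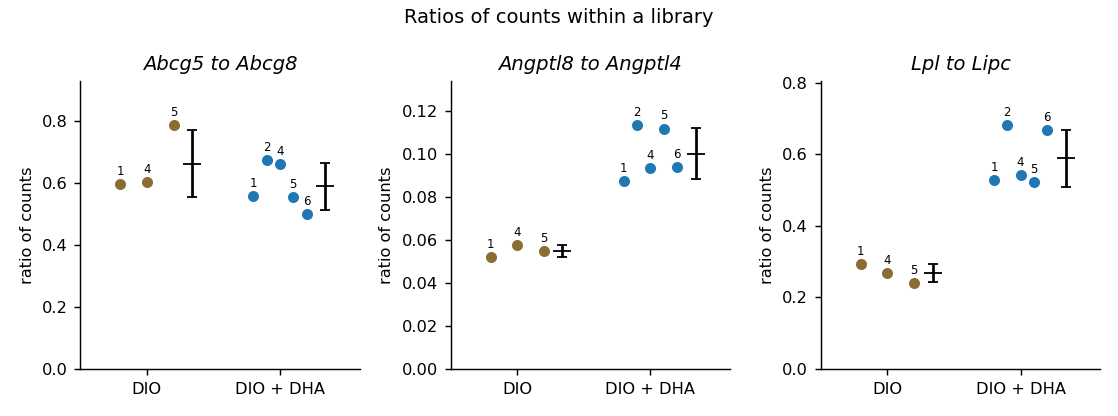
Ratio of counts (y axes) of Abcg5 to Abcg8, Angptl8 to Angptl4 and Lpl to Lipc in each library, by group on the x axes, with digits for replicate numbers and bars for the mean ± SD. The groups overlap for Abcg5 to Abcg8 (means 0.661 and 0.588) and do not for Angptl8 to Angptl4 (0.0549 and 0.1002) and Lpl to Lipc (0.268 and 0.588).

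The genes whose levels over the 8 libraries most resembled those of Lpl were sought among the 4187 genes whose mean reached 20 CPM, by the root mean square difference in log2 CPM after subtracting the DIO mean. They were Nr0b2, which encodes the corepressor SHP (0.109, log2 fold change 1.21), the tight junction gene Cldn1 (0.135, log2 fold change 1.33) and the small heat shock protein gene Hspb1 (0.166, log2 fold change 1.36). The measure is dominated by the difference between the groups, and it is given as a description.

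The wider pathway was described by 5 lists with 64 genes, of which 59 could be tested, 7 were called higher and 11 lower, where 7.89% of all genes tested were called higher and 7.28% lower. The median log2 fold change of the 59 genes was -0.01. The called genes of 4 lists lay on both sides, while the 3 called in the list of lipoprotein uptake were all lower. Apob, Nr1h3 and Ppara are given below as well, chosen after their values were seen.

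Among the partners of the lipases, 11 of 12 genes could be tested, 2 were higher and 2 lower. Gpihbp1, which anchors Lpl to the capillary endothelium, fell from 76.6 ± 5.73 to 53.5 ± 6.25 CPM (log2 fold change -0.52, SE 0.10, adjusted p = 3.4e-05), without overlap. The sum of endothelial markers, given above, was also lower. Of the genes in that list that were not called, Pecam1, Kdr and Cdh5 had folds of 1.02, 1.03 and 1.14. Stab2, Oit3, Fcgr2b, Ptprb and Tek, also not called, had folds of 0.799, 0.767, 0.879, 0.904 and 0.818. The part of endothelial cells in the Gpihbp1 difference was not tested. Apoc3, an apolipoprotein that slows lipolysis and remnant clearance, rose from 4614 ± 130 to 5627 ± 411 CPM (log2 fold change 0.29, adjusted p = 0.00031). Apoa5, which promotes lipolysis, was called higher with overlapping groups (log2 fold change 0.23, adjusted p = 0.012), and the call was lost with limma-voom at B above 0 and without DIO replicate 1 (adjusted p = 0.080), DIO replicate 4 (0.13) or DIO + DHA replicate 4 (0.061). Of its exon bases, 20.8% are shared with Gm47544. Apoc1, an inhibitor of lipases and remnant uptake, had a log2 fold change of -0.01 (adjusted p = 0.97).

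Of 10 further genes of lipoprotein assembly, 9 could be tested, 1 was higher and 1 lower. P4hb, the protein disulphide isomerase that is the small subunit of the Mttp complex, rose from 514 ± 11.7 to 612 ± 29.5 CPM (log2 fold change 0.25, SE 0.07, adjusted p = 0.0043), without overlap, but did not pass limma-voom at B above 0. The difference between its change and that of Mttp was not tested. Apob, the structural protein of very-low-density lipoproteins, was at 480, 420 and 320 CPM in DIO and at 559, 551, 406, 590 and 383 CPM in DIO + DHA, and its log2 fold change of 0.31 (95% interval -0.20 to 0.81, adjusted p = 0.45) did not pass. Apobec1, which edits the Apob transcript, was called lower (log2 fold change -0.73, adjusted p = 0.028) at only 10.7 and 6.36 CPM, and the call was lost in 7 of 16 alternative settings, among them those without DIO replicate 4 or DIO + DHA replicate 1, 2, 4 or 5 (adjusted p from 0.0501 to 0.399).

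In the uptake list 12 of 13 genes could be tested, 0 were higher and 3 lower. Lrp1, the remnant receptor, fell from 110 ± 15.4 to 82.3 ± 13.1 CPM (log2 fold change -0.40, adjusted p = 0.0044) with overlapping libraries, and did not pass limma-voom at B above 0. Apoe, the ligand of these receptors (log2 fold change -0.17, adjusted p = 0.027), and Mylip, a ubiquitin ligase that degrades Vldlr (log2 fold change -0.68, adjusted p = 0.045), were called lower, but the calls were lost in 8 and 9 of 17 alternative settings. Apoe lost its call without DIO replicate 4 or 5 or DIO + DHA replicate 1, 2 or 5 (adjusted p from 0.0580 to 0.194), and Mylip without DIO replicate 1 or 4 or DIO + DHA replicate 1, 4, 5 or 6 (0.0716 to 0.228).

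Of 14 genes of sterol export and high-density lipoprotein, 12 could be tested, 3 were higher and 2 lower. Apoa1, the acceptor of the sterol that Abca1 exports, was at 9287 ± 75.5 CPM in DIO (n = 3) and at 13316 ± 516 CPM in DIO + DHA (n = 5), with a log2 fold change of 0.52 (SE 0.06, adjusted p = 8.1e-11). Abcb4, which moves phospholipid into bile beside the sterol moved by Abcg5 and Abcg8, rose from 174 ± 5.67 to 253 ± 23.1 CPM (log2 fold change 0.54, SE 0.08, adjusted p = 1.5e-07). Soat2, which esterifies cholesterol, fell from 28.5 ± 1.88 to 18.1 ± 1.67 CPM (log2 fold change -0.65, SE 0.13, adjusted p = 0.00020). Libraries of the groups did not overlap for these 3 genes. Calls of Abcg1, a sterol exporter known from macrophages (lower, log2 fold change -0.84, adjusted p = 0.029), and of Apoa2 (higher, log2 fold change 0.17, adjusted p = 0.036) were lost in 6 of 16 and 7 of 17 alternative settings. Those of Abcg1 include leaving out DIO replicate 5 or DIO + DHA replicate 1 or 4 (adjusted p from 0.0582 to 0.386), and those of Apoa2 leaving out DIO replicate 1 or 4 or DIO + DHA replicate 2, 4 or 5 (0.0624 to 0.241). Abcg1 moved with the lower macrophage sum, and the part of those cells was not tested.

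Among 15 regulators of these genes, all of them tested, 1 was higher and 3 lower. Hnf4a, the hepatocyte nuclear factor with many targets among apolipoprotein genes, fell from 241 ± 10.95 to 167 ± 10.04 CPM (log2 fold change -0.53, SE 0.07, adjusted p = 7.1e-08), and the bile acid receptor gene Nr1h4 fell from 104 ± 3.98 to 78.8 ± 4.97 CPM (log2 fold change -0.40, SE 0.08, adjusted p = 0.00032). Of the liver X receptors, Nr1h2 was called lower (18.9 ± 2.22 and 13.1 ± 2.07 CPM, log2 fold change -0.54, adjusted p = 0.011), a call lost in 5 of 17 alternative settings, those without DIO replicate 4 (adjusted p = 0.0748) or 5 (0.1004) included. Nr1h3, the form abundant in hepatocytes, was at 153 ± 16.4 and 153 ± 9.31 CPM (log2 fold change -0.01, adjusted p = 0.97). Ppara, the fatty acid receptor, was at 123 ± 26.01 and 111 ± 10.3 CPM and did not pass (adjusted p = 0.25), and Rxra, their shared partner, had a log2 fold change of -0.03 (adjusted p = 0.85). Ppargc1a, a coactivator of these receptors, rose from 7.97 ± 1.24 to 34.7 ± 4.76 CPM (log2 fold change 2.04, SE 0.16, adjusted p = 7.0e-16). Skeletal muscle is among the other tissues that express it. The parts of the higher muscle and adipocyte signals in the Ppargc1a difference were not tested.

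**Figure D5:**
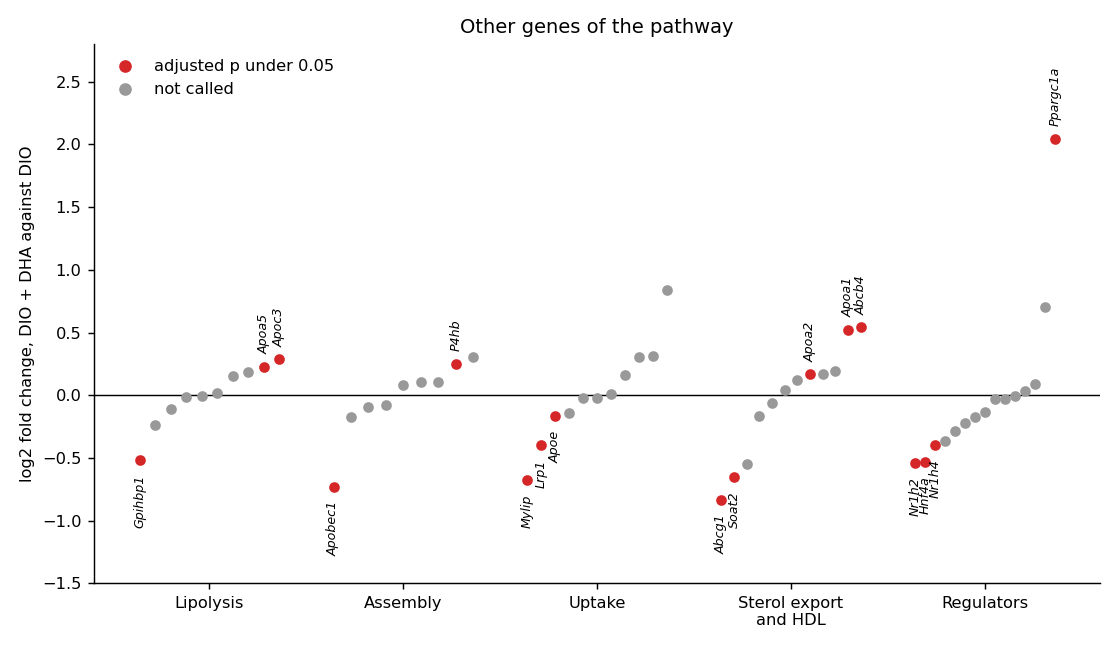
Log2 fold change of DIO + DHA over DIO (y axis) for the tested genes of the 5 pathway lists that are reported here (x axis), with red points and names for genes with an edgeR adjusted p under 0.05, grey points for the others and a line at 0. Called genes stand on both sides of 0 in every list except that of uptake, where the 3 called are lower.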

How the data were processed

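Liver poly(A) RNA of 8 mice was sequenced, 3 of the DIO and 5 of the DIO + DHA group, grouped by the sample titles. The authors made 3′-enriched cDNA with molecular identifiers, trimmed and aligned the reads (STAR 2.7.9a, GRCm39), and counted exons of GENCODE release 33 with featureCounts 1.6.0 (quality control with FastQC 0.11.8, per the submitters' processing notes). The deposited values are counts per gene, not normalized, obtained without strand and without reads that map to several places or to overlapping genes. Collapse of molecular identifiers is not given in the sources used here, so counting errors cover counting alone and may be too small. Counts were not divided by length, because the reads come mostly from 3′ ends.

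Names came from GENCODE release 39, which held 56323 of the 56884 identifiers, with 561 unnamed. The libraries held 1723800 to 5690347 counts. Genes with fewer than 5 counts in over 50% of the libraries in both groups were left out, and 12412 remained. After TMM scaling, the groups were compared with edgeR 4.0.16 (R 4.3.3, quasi-likelihood F test, robust, Benjamini-Hochberg, threshold 0.05). Standard errors are the log2 fold change over the root of F. Ratios of counts within a library (0.5 added) and summed marker CPM were compared by exact permutation (two-sided, 56 arrangements), adjusted over 3 ratios and 7 lists. Replicates were separate mice, and the closest pair of libraries within a group differed beyond sampling noise.

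The genes and lists were chosen with earlier results of these data known. From each pathway list the text names at most 4 called genes with the smallest p and the gene with the largest mean CPM, and the 3 genes most like Lpl. Apoc2, Cideb, Lrp8, Npc1l1 and Pltp did not pass the filter. Of the exon bases of Apoc2, Cideb and Pltp, 79.5%, 83.5% and 19.3% are shared with other genes. Reads in shared bases were left out, so the low counts of these genes do not show low expression. Alternatives were DESeq2 1.42.0 (size factors and Wald test), library size, TMM without other-tissue genes, limma-voom (limma 3.58.1, log-odds B above 0, prior proportion 0.01), 3 other filters, an adjusted p under 0.01, the replicate number as a block and leaving out each library. The test across genes was tried on simulated data first. Promoter windows came from RefSeq (GRCm38.p6), for 7 of the 9 genes, Lpl and Angptl4 being the others. Values of some list genes are not reported here, though the list counts include them.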

Additional observations from a re-analysis of the deposited data

Results flagged for a closer look

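Of 39 sets of 5 DIO + DHA values examined for a library far from the others, 2 held one, where chance gives about 1 in 20. For Mttp, DIO + DHA replicate 2 had 114 CPM, and its gap to the next library was 0.778 of the whole range, above the limit of 0.71, while the other 4 libraries had 100.5 to 103.5 CPM. Without that library the log2 fold change of Mttp was 0.60, and the gene was still called higher. For the summed macrophage genes, DIO + DHA replicate 6 had 431 CPM, with a gap of 0.726 of the range, while the other 4 had 397 to 406 CPM, and all 5 lay below the DIO libraries. The cause was not tested in either case, and groups of 3 libraries were not examined in this way.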

How the results depend on the processing

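Lpl, Angptl8 and Mttp were called higher, and no other of the 9 genes was called, under all 18 alternatives. Their log2 fold changes ranged from 1.02 to 1.21, 0.85 to 0.98 and 0.59 to 0.67. Vldlr ranged from -0.03 to 0.29, Abcg5 from -0.04 to 0.17, Lipc from -0.02 to 0.02, Angptl4 from 0.02 to 0.15, Abca1 from 0.05 to 0.18 and Abcg8 from 0.15 to 0.30, with 0.074 as the smallest adjusted p of Abcg8. The count over all genes, 1883 by edgeR, was 860 with limma-voom at B above 0, 1225 at an adjusted p under 0.01, 1317 with the Wald test of DESeq2 and 1432 to 1859 with 1 library left out. The 18 called genes of the pathway lists became 10 with limma-voom, 11 at an adjusted p under 0.01, 12 with DESeq2 and 12 to 18 with 1 library left out. Scaling by library size alone gave 904 higher and 961 lower genes, against 979 and 904 with TMM.

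The log2 difference of the ratio of Angptl8 to Angptl4 ranged from 0.81 to 0.90 and that of Lpl to Lipc from 1.05 to 1.19 with 1 library left out. Without a DIO library the adjusted p was 0.0714 for both, with 21 splits left. As the ratio of Abcg5 to Abcg8 did not separate, this was the smallest adjusted p possible. It therefore cannot show whether the result depends on a single DIO library.

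The groups shared replicate numbers 1, 4 and 5, but same-numbered libraries did not deviate together (correlations of -0.0133, -0.0135 and -0.0111). Those of pairs with different numbers ran from -0.0593 to 0.0621. A pairing by number was not detected, and these few pairs cannot exclude it. With the replicate block 1538 genes, 3 of the 9 genes and 15 of the pathway genes were called. Vldlr rests on the fewest counts of the 9 genes, 411 in all, and every comparison on 3 DIO mice.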
